A study of Mus musculus with 3072 samples.

Results

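Haematopoietic stem cells (HSCs) sorted as single cells from bone marrow were compared between platelet-depleted mice and control mice. The wells labelled HSC were taken from the count matrix, and a well was kept if it held 20000 counts or more and 1000 to 10000 detected genes, and if mitochondrial transcripts made up no more than 20% of its counts. That filter left 679 of 768 HSC wells, out of 3072 labelled wells in the whole series. Counts of the kept wells were added up per mouse, which gave 4 control and 4 depleted sums. The control sums came from 84, 80, 79 and 76 cells, and the depleted sums from 90, 92, 86 and 92 cells.

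All 8 mice were wild-type C57BL/6 animals that had received a transplant of barcoded stem cells, so every HSC here came from a transplanted host. Barcode reads were recorded for 595 of the 679 kept HSC wells, and whether the other cells came from the transplant was not tested. Control mice carried the label control and were analysed at week 32 after transplantation. Depleted mice carried the label platelet_depleted and were analysed at week 28. The series title calls the depletion acute. The agent used, the interval between depletion and sampling and the gate behind the HSC label are not stated in the labels used here. Treatment, week and experiment coincided in all 8 mice, so their parts in any difference cannot be told apart. Because the wells of a mouse were summed, a smaller share of cells of a type and less RNA per cell cannot be told apart in a gene's level.

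HSCs renew themselves and give rise to all blood lineages, and most of them are quiescent in the undisturbed marrow. Some HSCs express megakaryocyte genes such as Vwf and Itga2b and favour the platelet lineage. Thrombopoietin both maintains HSCs and drives megakaryocytes, the cells that shed platelets. Quiescent HSCs are also known for low protein synthesis, which makes the ribosome and its parts of interest in their activation.

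Markers that define HSCs were detected in the wells labelled HSC of every mouse. The wells of other populations were not read, so whether these markers set the HSC wells apart was not tested. Hlf, a transcription factor of HSCs, had at least 1 count in 79.6% ± 3.99 (SD, n = 4 mice) of control cells and 82.9% ± 4.32 of depleted cells once each cell was thinned to 100000 counts. Mecom, another HSC transcription factor, was detected in 70.9% ± 7.61 of control and 70.1% ± 6.12 of depleted cells. Procr, a surface marker of HSCs, was detected in 65.5% ± 9.78 and 67.7% ± 2.02. Cd48, which HSC gates usually exclude, reached at most 14.5 CPM (counts scaled to the same total in every mouse) in any mouse. The median kept well had 1326554 counts (range 28152 to 5315421), and the sums per mouse held 59743680 to 152921806 counts, the lowest in control mouse 1.

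Of 9884 genes with a mean level of at least 8 CPM, 9 (0.0911%) differed at an adjusted p under 0.05 in the quasi-likelihood test of edgeR with Benjamini-Hochberg adjustment. All 9 were lower in depleted HSCs. They were 5 genes of the cytosolic ribosome (Rps12, Rpl39, Rps15a, Rpl30 and Rpl31), the mitochondrial ribosomal RNA mt-Rnr1, the cell cycle and splicing kinase Cdk11b, the haem-degrading enzyme Hmox1 and the lectin Fcna. No gene was called higher (0%), while 433 genes (4.38%) had an unadjusted p under 0.05 with a higher level in depleted HSCs and 538 (5.44%) with a lower one. DESeq2 called 129 of the same 9884 genes, 31 of them higher and 98 lower, and all 9 were among them. Counts of DESeq2 calls in the gene lists below are to be read beside these 129 of 9884. The 4 depleted mice lay above all 4 control mice for 262 genes (2.65%) and below all of them for 360 genes (3.64%).

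The calls depended on which mice and genes entered the test. Without depleted mouse 1, and likewise without depleted mouse 3, edgeR called 0 genes, and 837 and 865 genes had an unadjusted p under 0.05. Between 4 and 13 genes were called without any 1 of the other 6 mice. With the default expression filter of edgeR 16848 genes were tested and 0 were called, with 1427 at an unadjusted p under 0.05. The direction of all 9 genes was kept in every alternative in which they could be tested.

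**Figure D1:**
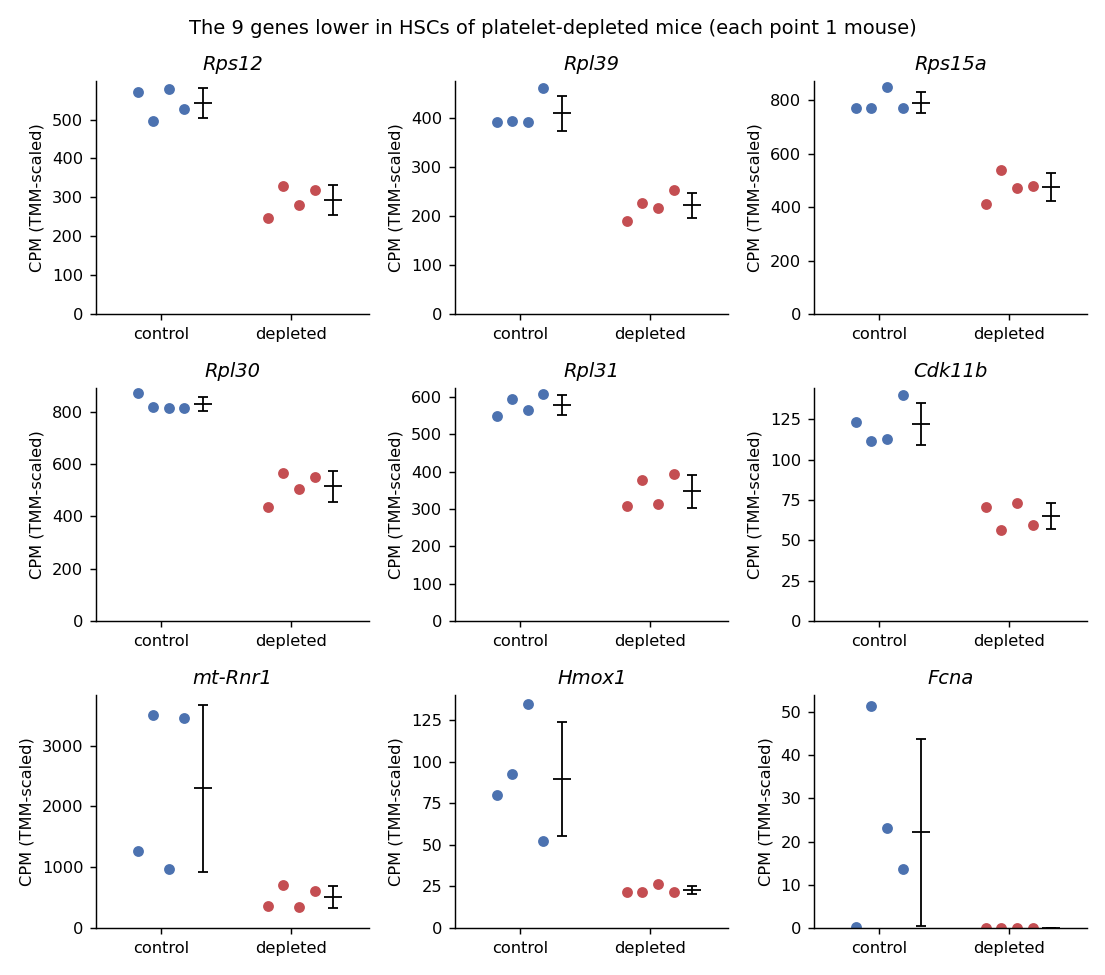
Level of each of the 9 called genes in HSCs, in CPM after TMM scaling (a scaling for composition), with 1 point for each of 4 control (blue) and 4 depleted (red) mice and the mean ± SD beside them. In every panel the depleted mice lie below all control mice, and for Fcna control mouse 1 lies near 0 as well.

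Ribosomal protein genes made up the largest group of these calls. The cytosolic ribosome pairs a small subunit of RPS proteins with a large subunit of RPL proteins. Of 92 such genes in the list, 86 passed the filter on level, 5 were called lower and none higher. The log2 fold change was below 0 for 85 of the 86, against 49.5% of all genes tested, and its median was -0.41, against 0.0030 over all genes tested. For 56 of the 86 the depleted mice lay below all control mice, against the 3.64% of all genes, and for 0 did they lie above. At an unadjusted p under 0.05, 71 of the 86 were lower and 0 higher, against 5.44% and 4.38% of all genes. DESeq2 called 44 of the 86, all lower, against 98 lower and 31 higher among all 9884 genes tested. As a share of all gene counts, ribosomal protein genes held 9.85% ± 0.42 in control and 8.39% ± 0.35 in depleted mice, a mean over cells. No depleted mouse reached the lowest control mouse in this share. The exact two-sided permutation test over 70 labelings gave p = 0.0286, the smallest it can give, and 0.0714 after adjustment over the 10 measures per mouse.

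Rps12, a protein of the small subunit, stood at 571, 496, 579 and 526 CPM in control mice 1 to 4. In depleted mice 1 to 4 it stood at 247, 329, 280.3 and 320.1 CPM. The groups were well separated, and the log2 fold change was -0.89 (SE 0.12, adjusted p 0.0128 in edgeR). Rpl39, a small protein near the exit tunnel of the large subunit, had 392, 394, 392 and 463 CPM in control mice. It had 190.2, 228, 218 and 253 CPM in depleted mice, with a log2 fold change of -0.88 (SE 0.13, adjusted p 0.0128 in edgeR). Control mouse 4 stood above the other 3 control mice for Rpl39, and the depleted mice again lay below all of them. Rps15a, of the small subunit, averaged 790.5 ± 39.3 CPM in control and 476 ± 51.5 CPM in depleted mice (n = 4 each). Its log2 fold change was -0.73 (SE 0.11, adjusted p 0.0221 in edgeR), with 770.3 CPM in the lowest control mouse and 539 CPM in the highest depleted mouse. Rpl30, of the large subunit, averaged 829 ± 27.5 and 515 ± 58.1 CPM, a log2 fold change of -0.69 (adjusted p 0.0298 in edgeR). Rpl31, also of the large subunit, averaged 579 ± 26.9 and 348 ± 44.2 CPM, a log2 fold change of -0.74 (adjusted p 0.0298 in edgeR). For Rpl30 and Rpl31 too, depleted mouse 1 was the lowest of all 8 mice. The next genes by p that separated the groups included Rpl23 and Rpl36a, both at an adjusted p of 0.0639 and so not called, with log2 fold changes of -0.63 and -0.64.

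The lower level was uneven across the ribosome. The ribosomal protein genes Rplp0 and Rpl4, among the 3 with the highest levels, differed little between the groups. Rplp0, a protein of the ribosomal stalk, had 4247 ± 378 CPM in control and 4032 ± 231 CPM in depleted mice. Rpl4, a protein of the large subunit, had 3578 ± 253 and 3216 ± 146 CPM. Their log2 fold changes were -0.07 and -0.15, neither was called, and in both the mice of the groups overlapped. Over the 86 genes the log2 fold change ran from -1.12 for Rps3a3, a copy of Rps3a, to 0.07 for Rpl7l1. Across these genes, which share libraries and are not independent, Spearman's rho of the log2 fold change with the mean level was 0.46 and with transcript length 0.23. Ribosomal protein genes have many processed pseudogenes, and counting could split or share their reads, so single genes of the family are less certain than the family.

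Many ribosomal protein messages begin with a stretch of pyrimidines at the start of transcription, through which their translation follows growth signals. The windows of 15 bases on each side of the RefSeq start site are shown for 4 called genes, because they do or do not hold CTTTC or CTTTT, words that were searched as a simple mark of such a stretch. The sequences are from RefSeq on GRCm38.p6, 5′ to 3′ in the gene's direction, and capitals mark CTTTC or CTTTT on the gene's own strand.
Rps12, chr10:23787195-23787224, minus strand: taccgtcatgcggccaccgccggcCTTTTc
Rps15a, chr7:118116133-118116162, minus strand: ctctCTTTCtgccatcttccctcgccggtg
Rpl39, chrX:37085208-37085237, minus strand: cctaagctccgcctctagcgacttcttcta
Rpl31, chr1:39367836-39367865, plus strand: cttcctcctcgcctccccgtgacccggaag

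Rps12 and Rps15a held 1 of these words, in Rps15a before the start site, and Rpl39 and Rpl31 held neither. All 4 were called lower, and a window without these words can still hold other runs of pyrimidines. A window was found for 62 of the 86 ribosomal protein genes tested, and 21 of these (33.9%) held CTTTC or CTTTT, against 576 of 7875 tested genes with a window (7.31%) and 6.96% of all 32851 windows. The median log2 fold change was -0.49 for the 21 ribosomal protein genes with a word and -0.39 for the 41 without. Among other genes it was -0.0055 for 555 with a word and 0.0079 for 7258 without. Ribosomal protein genes were thus below 0 at the median with and without these letters.

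Transcript length moved with the fold change, and ribosomal protein transcripts are short. The longest annotated transcript had a median length of 1054 nucleotides for ribosomal protein genes and 3413 for other genes. Among genes outside the ribosome, the median log2 fold change was -0.48 for the 79 genes under 600 nucleotides and -0.17 for the 338 genes from 600 to under 1000. It was -0.04 for 1510 genes from 1000 to under 2000, 0.0029 for 4054 genes from 2000 to under 4000 and 0.06 for 3710 genes of 4000 or more. Depleted mice lay below all control mice for 37.97% of the shortest class and 2.10% of the longest. The 79 shortest genes summed to 2930 to 3560 CPM in control mice and 2376 to 2982 CPM in depleted mice, so the groups overlapped in the sum. Within each length class with at least 20 of them, ribosomal protein genes had a lower median than the other genes, at -0.44 for 31 genes from 600 to under 1000 nucleotides and -0.34 for 33 from 1000 to under 2000. Under 600 nucleotides, 8 ribosomal protein genes had a median of -0.46, against -0.48 for the other genes. With the trends on GC content and length removed from each mouse, the median of the 86 genes was -0.23, Rps12, Rps15a and Rpl30 were called, and Rpl39 (adjusted p 0.147 in edgeR) and Rpl31 (0.100) were not. Whether length itself, as a property of the libraries, has a part in the result beyond these values was not tested.

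**Figure D2:**
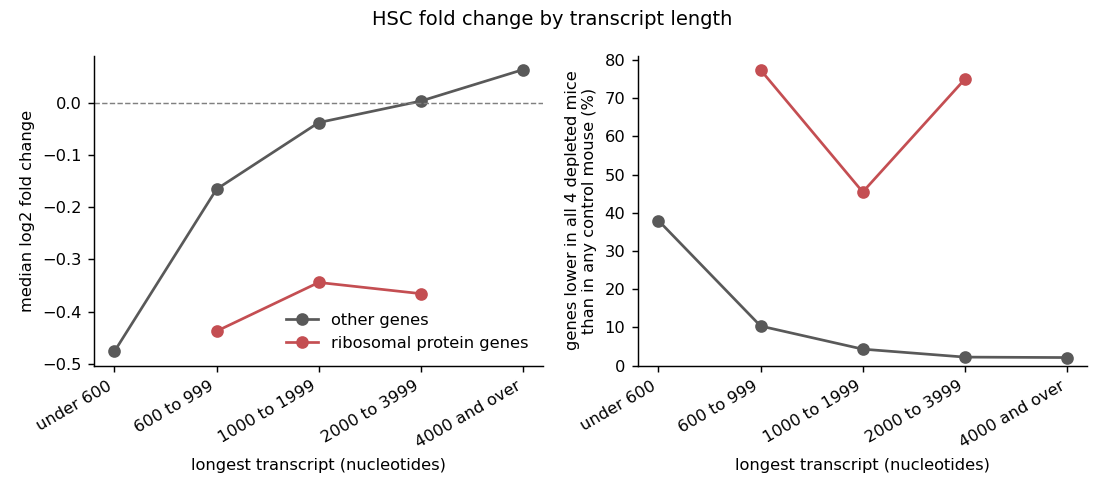
Median log2 fold change (left, depleted against control) and share of genes lower in all 4 depleted mice than in any control mouse (right) by length of the longest annotated transcript, for other genes (grey, 79 to 4054 genes a class) and ribosomal protein genes (red, 31, 33 and 12 genes; classes of 8 and 2 genes are not drawn). Other genes run from a median of -0.48 in the shortest class to 0.06 in the longest, and the drawn ribosomal protein classes stay at -0.34 or below.

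The number of genes per cell moved with the same split of the mice. In cells thinned to 100000 counts the median was 4655 ± 234 genes in control and 4084 ± 165 in depleted mice, and every control mouse lay above every depleted mouse (exact permutation p = 0.0286, adjusted 0.0714). Thinned to 20000 counts the medians were 3579 ± 156 and 3287 ± 143 genes, and control mouse 2 lay below depleted mouse 1 (p = 0.0571, adjusted 0.114, same test). More wells passed the filter in depleted mice, 93.8% ± 2.95 against 83.1% ± 3.44, with no overlap between mice (p = 0.0286, adjusted 0.0714, same test). The scaling factors of the sums (TMM) were 0.941 to 0.970 in control and 0.992 to 1.08005 in depleted mice. The median count per kept well overlapped between the groups, at 1297830 ± 432504 in control and 1299140 ± 247179 in depleted mice. The part of these properties of the wells in the lower ribosomal protein counts was not tested. With every cell thinned to 100000 counts, the median of the 86 genes was -0.43 and 15 of them were called.

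**Figure D3:**
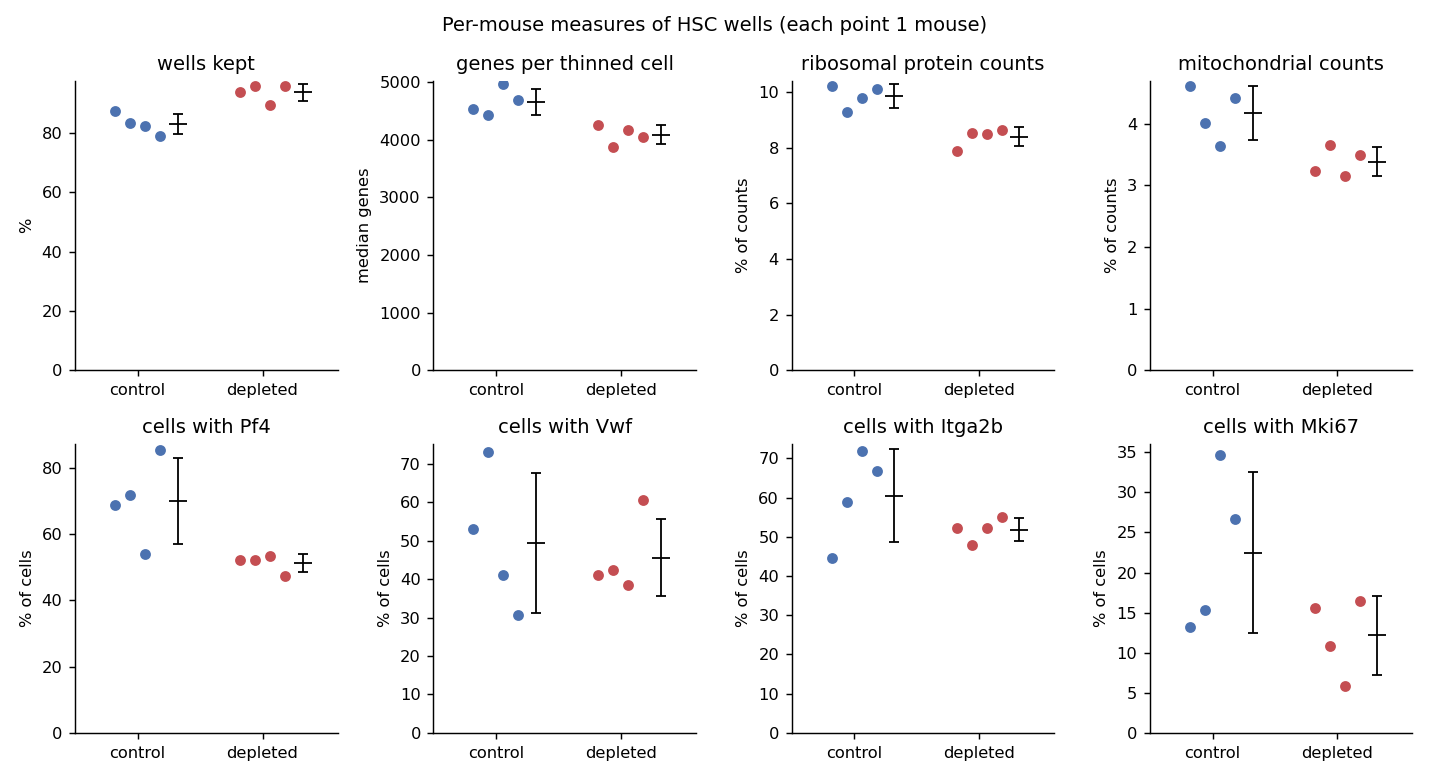
Measures of HSC wells in each mouse (points, 4 control in blue and 4 depleted in red) with the mean ± SD; axes start at 0 and their units stand beside each panel. Wells kept, genes per thinned cell, ribosomal protein share and cells with Pf4 separate the groups, and cells with Vwf, Itga2b and Mki67 and the mitochondrial share overlap.

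Other genes of protein synthesis moved less than the ribosome itself. Of 41 translation factors, 0 were called by edgeR, 7 lay lower in all depleted mice and 0 higher, and the median log2 fold change was -0.12. At an unadjusted p under 0.05, 7 were lower and 1 higher, against 5.44% and 4.38% of all genes tested. The shares of all genes without overlap between the mice were 3.64% lower and 2.65% higher. Eef1a1 and Eef2, the elongation factors, had log2 fold changes of -0.12 and -0.17, and Eif5a, which aids elongation, of -0.02, none called. Of 39 ribosome biogenesis genes, 0 were called, 2 lay lower without overlap and 0 higher, and the median was -0.14. At an unadjusted p under 0.05, 7 of them were lower and 0 higher, and DESeq2 called Eif1 of the factors and Npm1 of the biogenesis genes. Npm1, a nucleolar chaperone, stood at 1528 ± 121 CPM in control and 1163 ± 81.5 CPM in depleted mice without overlap, and was not called (adjusted p 0.186 in edgeR). Ncl, nucleolin, and Nop56, part of the machinery that methylates ribosomal RNA, had log2 fold changes of -0.43 and -0.16, also not called.

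Of the mitochondrially encoded RNAs, edgeR called 1, mt-Rnr1, lower, and DESeq2 called 3, mt-Rnr1 and mt-Rnr2 lower and mt-Nd6 higher. Mitochondria carry their own small genome with 2 ribosomal RNAs, mt-Rnr1 and mt-Rnr2, and 13 proteins of the respiratory chain. mt-Rnr1 stood at 1264, 3507, 967 and 3457 CPM in control mice 1 to 4 and at 357, 704, 350.0 and 608 CPM in depleted mice. Control mice 2 and 4 were far above mice 1 and 3, and all depleted mice were below the lowest of them. The log2 fold change was -2.19 (SE 0.37, adjusted p 0.0414 in edgeR), with adjusted p from 0.00367 to 0.468 over 18 alternatives. mt-Rnr2 stood at 23598, 21230.1, 18269 and 20494 CPM in control and 10721, 15667, 7638 and 12388 CPM in depleted mice. Its groups did not overlap either, at a log2 fold change of -0.85 (adjusted p 0.0639 in edgeR, not called). With GC content and length trends removed, edgeR called mt-Rnr2 (adjusted p 0.0237), as it did with thinned cells and without depleted mouse 2, and mt-Rnr1 missed the threshold with these trends removed (adjusted p 0.0515).

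The messages of the mitochondrial genome did not share one direction. Of 37 mitochondrially encoded genes 14 were tested, and 12 of the 14 code for proteins. mt-Co1, a subunit of complex IV, stood at 9449 ± 790.5 CPM in control and 9594 ± 371 CPM in depleted mice, and mt-Cytb, of complex III, at 5205 ± 689 and 5401 ± 451 CPM. mt-Nd1, of complex I, stood at 1941 ± 359.8 and 1835 ± 174 CPM. mt-Nd6, the 1 protein-coding gene on the opposite strand of that genome, stood at 104, 88.9, 78.4 and 89.3 CPM in control and 116, 137, 145 and 159.7 CPM in depleted mice. It was higher in every depleted mouse than in any control mouse, at a log2 fold change of 0.63 (adjusted p 0.158 in edgeR, not called). With GC content and length trends removed, edgeR called mt-Nd6 higher, at a log2 fold change of 0.99 (adjusted p 0.0123). With no strand rule given for the counting, its reads cannot be told from those of the transcripts that run across it. The median over the 14 genes was -0.27, and 0.04 once GC content and length trends were removed. Over the 12 that code for proteins the median was -0.10. Mitochondrially encoded genes together held 4.17% ± 0.43 of counts in control and 3.39% ± 0.23 in depleted cells, with overlap between the mice (exact permutation p = 0.0571, adjusted 0.114). The 13 protein genes alone did not sum lower, at 18291 ± 1793 CPM in control and 20540 ± 1313 CPM in depleted mice, also with overlap.

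Nuclear genes of the respiratory chain lay lower too, without a call by edgeR. Of 78 tested, 0 were called by edgeR, 73 had a log2 fold change below 0, 31 had an unadjusted p under 0.05 with a lower level and 17 lay below all control mice, against 0 above. The shares of all genes were 5.44% lower at that p and 3.64% below all control mice. The median was -0.28, and -0.12 with GC content and length trends removed. DESeq2 called 3 of them lower, Cox7a2, Cox7b and Cox8a. Cox7b, a small subunit of complex IV, had the lowest log2 fold change of the list at -0.69 and was not called by edgeR, and Cox7a2, Cox5b, Cox6b1 and Cox8a of the same complex lay between -0.57 and -0.48. These subunits were named after their values were seen. The 3 members with the highest levels moved less, with log2 fold changes of -0.22 for Atp5b and -0.05 for Atp5a1, subunits of ATP synthase, and of -0.06 for Sdha of complex II. By length, known for 76 of the 78, the 35 members under 1000 nucleotides had a median of -0.30 and the 41 longer ones of -0.27. Mitochondrial ribosomal proteins, 77 genes, had a median of -0.09, with 7 below all control mice, and neither edgeR nor DESeq2 called any (0 genes). At an unadjusted p under 0.05 4 were lower, near the share of all genes (5.44%). Mrpl23 stood at 118 ± 6.05 CPM in control and 91.7 ± 4.22 CPM in depleted mice without overlap and uncalled, while Mrps17 stood at 127 ± 11.98 and 127 ± 10.8 CPM and Mrpl4 at 114 ± 16.9 and 119 ± 7.41 CPM.

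**Figure D4:**
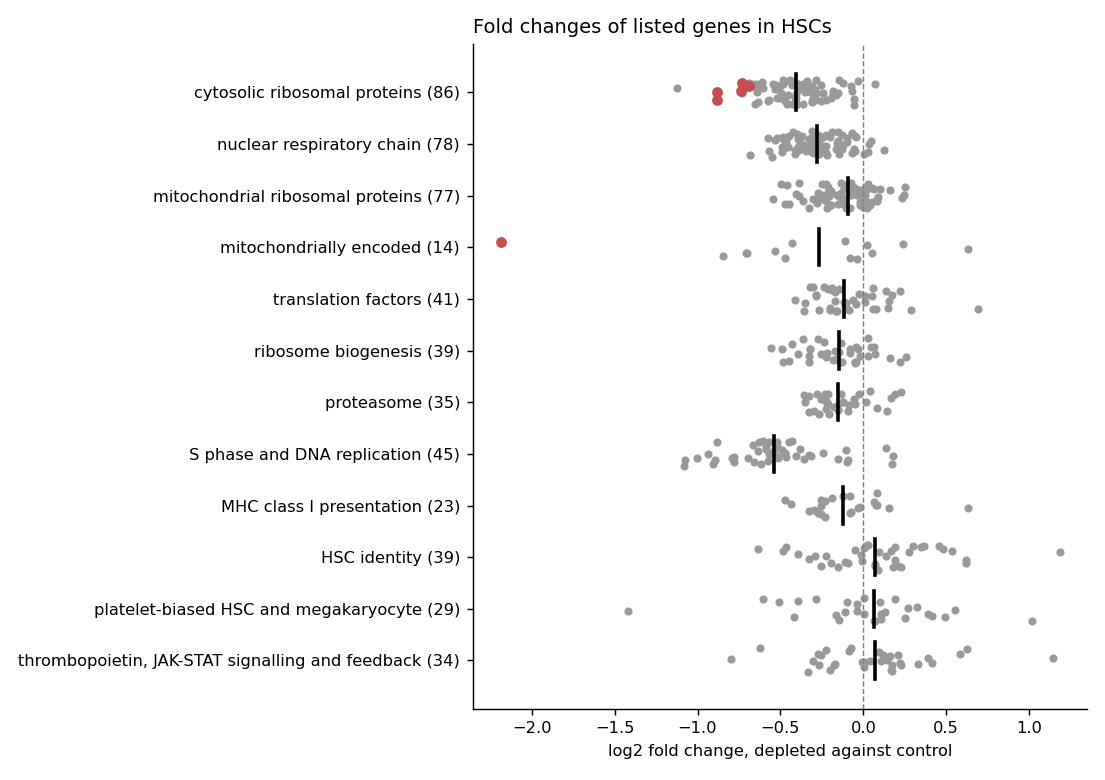
Log2 fold change of each tested gene (points, depleted against control HSCs) in 12 gene lists, with the number tested in brackets, the median as a black bar and called genes in red. Cytosolic ribosomal proteins sit to the left of 0 apart from 1 gene, and the lists of HSC identity and of the platelet lineage are spread around 0.

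Hmox1 and Fcna were called lower, and macrophage markers moved with the same groups. Hmox1, haem oxygenase, breaks down haem and is abundant in the macrophages that clear old red cells. It stood at 79.7, 92.2, 135 and 52.1 CPM in control mice 1 to 4 and at 21.6, 21.3, 26.2 and 21.8 CPM in depleted mice. The depleted mice lay close together and below every control mouse, at a log2 fold change of -1.98 (SE 0.25, adjusted p 0.00944 in edgeR). Fcna, ficolin A, is a lectin of the complement system made by macrophages. Its counts were 14, 6095, 2772 and 1461 in control mice 1 to 4 and 0, 1, 0 and 3 in depleted mice. The ratio of depleted to control counts, each per total count, was 0.000327 with a 95% exact interval of 8.90e-05 to 0.000837, which covers counting error only, and edgeR gave an adjusted p of 0.00944. Fcna passed the filter on level only through the control mice. Of all Fcna counts, 74.3% came from 3 wells and 55.3% from 1.

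C1qb, a chain of complement C1q, stood at 6.51, 26.4, 16.5 and 16.2 CPM in control mice. In depleted mice it stood at 0.786, 0.0200, 2.20 and 3.03 CPM, without overlap. At full depth edgeR did not call C1qb (adjusted p 0.194), and with thinned cells it did. C1qb too passed the filter only through the control mice. Adgre1, the F4/80 antigen, stood at 0.0167, 12.99, 1.52 and 2.93 CPM in control mice and had 0 counts in all 4 depleted mice. C1qa, C1qc and Vcam1 were under the level filter. C1qa and Vcam1 overlapped between the groups through depleted mice 3 and 2, at 9.15 and 13.9 CPM, and C1qc separated them. The whole list of 17 macrophage and stroma markers summed to 147 to 229.6 CPM in control and 126 to 189 CPM in depleted mice. Of the 17, 12 had a higher mean in control mice, 2 were at 0 in all control mice and 5 in all depleted mice, among them the endothelial Cdh5 and the stromal Cxcl12.

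Counted by well, at least 5 CPM of 2 or more of C1qa, C1qb, C1qc, Vcam1, Adgre1 and Cd68 occurred in 35 wells of 319 from control mice (10.97%) and in 6 of 360 from depleted mice (1.67%). By mouse these were 6, 8, 13 and 8 control wells and 1, 1, 3 and 1 depleted wells. This definition was chosen after the values were seen. These wells held 69.1% of the Hmox1 counts and 93.6% of the Fcna counts of control mice. With them left out, Hmox1 stood at 55.6, 24.3, 27.7 and 26.7 CPM in control mice. In depleted mice Hmox1 stood at 23.2, 17.8, 17.9 and 18.7 CPM, still below every control mouse. Its log2 fold change was then -0.94 and it was not called (adjusted p 0.338 in edgeR), and Fcna was under the level filter with 5, 240, 162 and 256 counts left in control mice. The ribosomal protein genes Rps12, Rpl39, Rps15a and Rpl30 were the 4 genes called without these wells, and the median of the 86 was again -0.41. Rpl31 (adjusted p 0.0651), Cdk11b and mt-Rnr1 (both 0.0791) then missed the threshold in edgeR, with log2 fold changes of -0.73, -0.84 and -2.19.

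**Figure D5:**
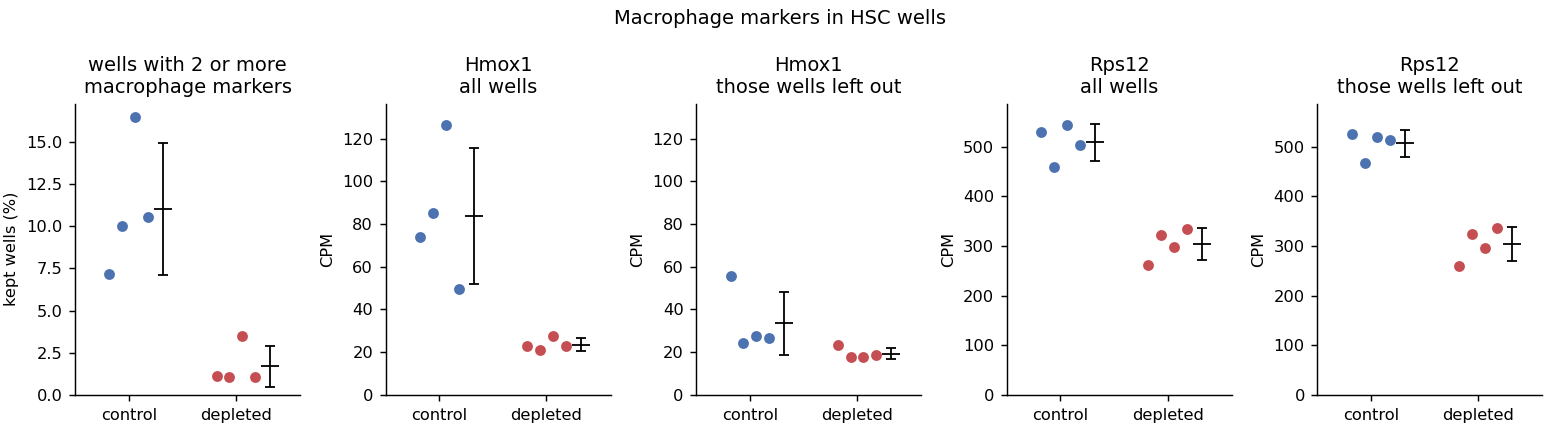
Share of kept HSC wells with at least 5 CPM of 2 or more of 6 macrophage markers (first panel), and levels of Hmox1 and Rps12 in CPM of the whole sum with all wells and with those wells left out, each point 1 mouse with the mean ± SD. Leaving the wells out brings Hmox1 to 55.6, 24.3, 27.7 and 26.7 CPM in control mice 1 to 4. These values still lie above the 17.8 to 23.2 CPM of the depleted mice, and Rps12 also stays apart in the groups.

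Cdk11b, a kinase of transcription and splicing, was the remaining call. It stood at 123, 112, 113 and 140.2 CPM in control mice and 70.4, 56.4, 73.1 and 59.7 CPM in depleted mice. The groups were far apart, at a log2 fold change of -0.91 (SE 0.15, adjusted p 0.0414 in edgeR). In thinned cells it was detected in 77.3% ± 9.07 of control and 45.98% ± 4.33 of depleted cells, so the difference was seen across many cells. Its 3 wells with the most counts held 3.43% of them. Across alternatives its adjusted p ran from 2.95e-05 to 0.389.

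Genes of DNA replication differed widely between control mice. Of 45 S phase genes, 0 were called by edgeR, 42 had a log2 fold change below 0, 10 had an unadjusted p under 0.05 with a lower level (5.44% of all genes) and 2 lay below all control mice, near the share of all genes (3.64%). DESeq2 called 3 of them lower, Pola1, Pcna and Hells, the latter a chromatin remodeller. The median was -0.54, and from -0.71 to -0.33 over the alternatives, the latter without control mouse 3. Pola1, the catalytic subunit of the polymerase that begins each DNA strand, stood at 74.1, 66.4, 97.8 and 83.5 CPM in control and 43.99, 39.9, 25.8 and 43.2 CPM in depleted mice. It separated the groups at a log2 fold change of -1.07 (adjusted p 0.0658 in edgeR, not called). With thinned cells edgeR called Pola1. Pcna, the clamp of the replication fork, stood at 279.5, 221, 522 and 439 CPM in control and 188, 243, 144 and 218 CPM in depleted mice. Control mice 3 and 4 were high and mouse 2 lay within the range of the depleted mice, and edgeR did not call Pcna (adjusted p 0.200). Mcm6 and Mcm3, of the replicative helicase, had log2 fold changes of -0.47 and -0.38 with the same 2 control mice high, neither called. The summed list stood at 3771.5, 3204, 7505 and 6455 CPM in control and 4343, 4597, 3338.5 and 4599 CPM in depleted mice, so control mouse 1 lay within the range of the depleted mice and control mouse 2 below it.

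Mitosis and the G1 kinases gave no call. Of 37 G2/M genes 0 were called by edgeR or DESeq2. At an unadjusted p under 0.05, 1 was lower, and 1 lay below all control mice, against 5.44% and 3.64% of all genes. The list's median was -0.22. That median reached 0.32 when a single mouse was left out, and it was above 0 without control mouse 3 and without depleted mouse 3. Mki67, a marker of cycling cells, stood at 43.8 ± 33.2 CPM in control and 31.6 ± 20.3 CPM in depleted mice, and was detected in 22.5% ± 10.005 and 12.2% ± 4.90 of thinned cells (exact permutation p = 0.171, adjusted 0.286). Hmgb2, H2az1 and Smc4, chromatin proteins of cycling cells, had log2 fold changes of -0.33, -0.27 and -0.08, none called. Of 14 G1 genes 0 were called by edgeR or DESeq2. At an unadjusted p under 0.05, 1 was higher and 3 lower, against 4.38% and 5.44% of all genes. The median of the G1 genes was -0.22. This median was -0.06 with thinned cells, -0.11 without control mouse 3 and -0.14 without control mouse 4. Cdk6, whose level sets how readily HSCs leave quiescence, stood at 384 ± 167 and 393 ± 83.8 CPM, and Cdk4 and Ccnd2 had log2 fold changes of -0.25 and -0.26.

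Genes of quiescence were divided. Of 23 tested, 0 were called by edgeR, 2 lay above all control mice and 1 below, against 2.65% and 3.64% of all genes. At an unadjusted p under 0.05, 2 were higher and 4 lower, against 4.38% and 5.44% of all genes. DESeq2 called Cdkn1a, the inhibitor p21, lower. Cdkn1c, the cell cycle inhibitor p57 of quiescent HSCs, stood at 9.14, 11.7, 8.59 and 4.32 CPM in control and 30.4, 16.6, 17.3 and 12.2 CPM in depleted mice. Every depleted mouse exceeded every control mouse, at a log2 fold change of 1.18 (SE 0.41, adjusted p 0.341 in edgeR, not called). Klf6, a transcription factor, stood at 198, 634, 204 and 279 CPM in control mice. In depleted mice it stood at 95.99, 85.8, 164 and 114 CPM, lower throughout (log2 fold change -1.51). At full depth edgeR did not call Klf6 (adjusted p 0.119), and with thinned cells it did. Txnip, a brake on glucose uptake, stood at 1734 ± 328 and 1517 ± 136 CPM, and Trp53 at 378 ± 44.7 and 393 ± 52.2 CPM, both overlapping.

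Genes of HSC identity and of the platelet lineage gave no call by edgeR or DESeq2. Of 39 HSC identity genes tested, 7 had an unadjusted p under 0.05 with a higher level and 2 with a lower one. The shares of all genes were 4.38% and 5.44%. Above all control mice lay 1 member and below them 0, against 2.65% and 3.64% of all genes. The median log2 fold change was 0.07. Hlf stood at 183, 173, 109 and 115 CPM in control and 195, 291, 158 and 244 CPM in depleted mice, overlapping, at a log2 fold change of 0.62 (adjusted p 0.324 in edgeR). Mecom stood at 132 ± 56.1 and 155 ± 24.2 CPM, and Procr at 192 ± 75.7 and 173 ± 23.5 CPM. Kit, the receptor of stem cell factor, stood at 654 ± 71.4 and 805 ± 100.4 CPM, Slamf1 (CD150) at 107 ± 45.1 and 92.03 ± 15.9 CPM, and Lmo2, a partner of Tal1, at 965 ± 60.03 and 1015 ± 75.3 CPM. None of these separated the groups.

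Of 29 tested genes of platelet-biased HSCs and megakaryocytes, 1 had an unadjusted p under 0.05 with a higher level and 2 with a lower one. The shares of all genes were 4.38% and 5.44%, and the median of the list was 0.06. Vwf, the platelet adhesion protein that marks platelet-biased HSCs, stood at 167, 278, 96.4 and 67.8 CPM in control and 129, 117, 102 and 308 CPM in depleted mice. Control mouse 2 and depleted mouse 4 were the high ones, so the spread within each group exceeded the difference between them. Vwf was detected in 49.4% ± 18.2 of cells in control mice and 45.6% ± 10.05 in depleted mice (exact permutation p = 0.686, adjusted 0.762). Itga2b (CD41) was detected in 60.5% ± 11.9 and 51.8% ± 2.95 of cells (p = 0.229, adjusted 0.327, same test). Pf4, a chemokine of platelet granules, was detected in 68.7%, 71.8%, 53.8% and 85.3% of control cells and in 52.2%, 52.2%, 53.5% and 47.3% of depleted cells. The mice did not overlap, by a narrow margin at control mouse 3 (p = 0.0286, adjusted 0.0714, same test). They overlapped with a floor of 200000 counts and 2000 genes per well, and with no upper limit on genes (p = 0.0571 for both, same test). The level of Pf4 did overlap, at 258 ± 101 and 169 ± 70.02 CPM (log2 fold change -0.61, adjusted p 0.509 in edgeR). Nfe2, a transcription factor of platelet formation, stood at 524 ± 56.001 and 632 ± 56.1 CPM, higher in every depleted mouse and not called (adjusted p 0.476), and Bin2 at 1021 ± 114 and 921 ± 91.5 CPM.

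Thrombopoietin signalling showed no called member among 34 by edgeR or DESeq2. At an unadjusted p under 0.05, 4 were higher and 1 lower, against 4.38% and 5.44% of all genes. Ptpn6, a phosphatase that damps cytokine receptors, had a log2 fold change of 0.14. The list's median was 0.07, and 2 members lay above all control mice and 0 below, against 2.65% and 3.64% of all genes. The 2 were Osm at a log2 fold change of 1.14 and Spred1 at 0.62, neither called and both named after their values were seen.

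Lists of inflammation and stress gave no call by edgeR apart from Hmox1. DESeq2 called Gbp7 of the interferon list, Atf4 and Hspa5 of the unfolded protein response and Sod1 and Hmox1 of the antioxidant list, all lower. Of 41 interferon response genes 6 were lower and 1 higher at an unadjusted p under 0.05, against 5.44% and 4.38% of all genes. Below all control mice lay 3 and above them 0, against 3.64% and 2.65% of all genes. The list's median was -0.15 and turned to 0.10 at most when 1 mouse was left out. Ly6e, Psmb8 and Tap1 had log2 fold changes of 0.11, -0.26 and -0.30. Of 23 genes of MHC class I presentation, 8 were lower and 1 higher at an unadjusted p under 0.05, and 7 lay below all control mice, against 5.44%, 4.38% and 3.64% of all genes. B2m, the shared light chain of class I molecules, stood at 6008, 5875, 5304 and 5723 CPM in control and 4372, 5237, 4950.3 and 4666 CPM in depleted mice, lower throughout and not called (log2 fold change -0.25, adjusted p 0.310). The heavy chains H2-K1 and H2-D1 had log2 fold changes of -0.08 and 0.08. Of 34 cytokine receptor and NF-kB genes, 2 were higher and 2 lower at an unadjusted p under 0.05, 1 lay above and 1 below all control mice, and Nfkbia stood at 233 ± 49.2 and 238 ± 38.9 CPM, Nfkb1 at 152 ± 10.8 and 171 ± 21.9 CPM and Ikbkb at 160.2 ± 15.3 and 148 ± 16.5 CPM.

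Immediate early genes varied among mice of both groups, with Fos at 477 to 1669 CPM in control and 650.3 to 1532 CPM in depleted mice and a list median of 0.02. Jun stood at 966 ± 319 and 1216 ± 387 CPM and Dusp1 at 645 ± 175 and 762 ± 299 CPM. Of 25 heat shock chaperones, 2 lay below all control mice and 0 above, against 3.64% and 2.65% of all genes. At an unadjusted p under 0.05, 6 were lower and 0 higher, against 5.44% and 4.38% of all genes. The list's median was -0.22, and Hspa8, Hsp90aa1 and Hsp90ab1 had log2 fold changes of -0.32, -0.36 and -0.15. Of 27 genes of the unfolded protein response, 5 lay below all control mice and 0 above, and 6 were lower and 0 higher at that p. The median of this list was -0.12. Hspa5, the chaperone of the endoplasmic reticulum also called BiP, stood at 759.5 ± 126 and 511 ± 71.8 CPM (log2 fold change -0.57, adjusted p 0.174), Pdia3 at 700.1 ± 43.3 and 580.3 ± 55.5 CPM and Ppp1r15a at 535 ± 133 and 387 ± 31.3 CPM. Of 33 antioxidant genes Hmox1 was the 1 call. Sod1, cytosolic superoxide dismutase, stood at 627 ± 149 and 422 ± 65.4 CPM (adjusted p 0.249), and Prdx6 and Gpx1 had log2 fold changes of -0.23 and -0.14.

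Metabolic and survival lists were near 0 apart from the proteasome. The proteasome list, 35 genes, had a median of -0.15, and from -0.20 to -0.09 over the alternatives. Of its members 6 lay below all control mice and 0 above, against 3.64% and 2.65% of all genes. At an unadjusted p under 0.05, 4 were lower and 0 higher, against 5.44% and 4.38% of all genes. Psma1 was among the 6, at a log2 fold change of -0.33, and Psma3 and Psma7 at -0.14 and -0.15 overlapped. Glycolysis genes had a median of 0.02, with Ldha at -0.29, Gapdh at -0.21 and Pkm at 0.09. Cholesterol synthesis genes had a median of 0.07, with Srebf2 at 0.22, Srebf1 at -0.32 and Stard4 at -0.05. Targets of p53 had a median of 0.08, with Sesn1 at 0.27, Xpc at 0.25 and Ccng1 at 0.08. The Bcl2 family had a median of -0.06, with Bcl2 at 0.12, Mcl1 at -0.18 and Bid at 0.17. None of these genes was called by edgeR or DESeq2, though DESeq2 called the p53 target Cdkn1a lower. The medians of glycolysis, cholesterol synthesis, p53 and Bcl2 genes, and of the histones, each changed sign under at least 2 alternatives. So did those of the immediate early, interferon and platelet lineage lists, and those of the quiescence and thrombopoietin lists did so under 1.

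Histone genes included some of the larger differences that missed the threshold. Of 18 tested, 4 lay above all control mice and 0 below, against 2.65% and 3.64% of all genes. At an unadjusted p under 0.05, 4 were higher and 2 lower, against 4.38% and 5.44% of all genes. The log2 fold change was above 0 for 10 of the 18 and below 0 for 8, and the median was 0.05. H3c6 stood at 1.71, 5.95, 3.66 and 1.27 CPM in control mice. In depleted mice it stood at 10.6, 19.9, 13.8 and 14.9 CPM (log2 fold change 2.23, adjusted p 0.145 in edgeR). H3c6 passed the filter on level only through the depleted mice. The counts of higher histone genes thus rest in part on the group in which H3c6 was high. H2ac6 stood at 25.9, 43.95, 11.3 and 18.9 CPM in control and 62.9, 61.5, 51.4 and 61.4 CPM in depleted mice (log2 fold change 1.24, adjusted p 0.189). Both were higher in every depleted mouse, and edgeR called neither with all mice at full depth. With thinned cells, and without control mouse 2, edgeR called H2ac6. The other members above all control mice were H1f0 and H2bc8, at log2 fold changes of 0.60 and 0.67, also not called by edgeR and named after their values were seen. DESeq2 called H1f0, H2ac6 and H3c6 higher. The replication histones are near-identical copies, so reads could be split or shared among them. The replacement histones H3f3b and H3f3a, the most abundant of the list, had log2 fold changes of -0.04 and -0.34.

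Among genes whose mice did not overlap, the others that came nearest to a call with higher levels had adjusted p from 0.0639 to 0.174. Gm47283, a predicted gene, led them with 28.0, 29.4, 31.1 and 54.5 CPM in control and 91.2, 69.5, 86.8 and 79.01 CPM in depleted mice (log2 fold change 1.19, adjusted p 0.0639 in edgeR). Control mouse 4 was the highest of the controls and still below every depleted mouse. Acvr1b, a type I activin receptor, stood at 4.03 ± 1.03 and 12.7 ± 2.71 CPM, a log2 fold change of 1.66, and passed the filter on level only through the depleted mice. Stk38, a kinase of the Hippo family, stood at 76.997 ± 9.43 and 121 ± 6.43 CPM, and Cltc, the clathrin heavy chain, at 57.7 ± 9.90 and 100.1 ± 19.7 CPM. Znrf1, a ubiquitin ligase, stood at 22.1 ± 4.18 and 43.9 ± 6.19 CPM, and Trim47, of a family of ubiquitin ligases, at 209 ± 66.2 and 351 ± 32.2 CPM. Atp11b, a lipid flippase, had a log2 fold change of 0.64, Mgat1, an enzyme of protein glycosylation, of 0.59, Dipk1b of 0.80 and AW549877 of 1.26. All of them separated the groups, which the rule that named them required. Neither they nor H3c6 and mt-Nd6 were called by edgeR with all mice, while DESeq2 called all 12 higher. With thinned cells, and without control mouse 4, edgeR called Gm47283, and without control mouse 1 it called Trim47.

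Markers of other blood lineages were measured in both groups. The myeloid and neutrophil list summed to 931 to 958 CPM in control and 1063 to 1651 CPM in depleted mice, without overlap, the highest in depleted mouse 4. Of its 9 tested genes 8 had a log2 fold change above 0, 0 lay above or below all control mice, and edgeR and DESeq2 called 0. At an unadjusted p under 0.05, 5 were higher and 0 lower, against 4.38% and 5.44% of all genes. The highest log2 fold change was 8.23, so that member passed the filter on level only through the depleted mice. The counts of higher members thus rest in part on the group in which they were high. The median of 0.48 was not stable, at 0.23 over the 4 genes tested without macrophage marker wells, 0.25 over 5 without depleted mouse 4, and 2.05, 2.48 and 2.44 over 8 without control mouse 1, depleted mouse 2 or depleted mouse 3. Csf3r, the G-CSF receptor, stood at 82.2 ± 14.3 and 115 ± 18.3 CPM, Prtn3, a granule protease, at 259 ± 26.2 and 308 ± 44.3 CPM and Lyz2 at 553 ± 38.1 and 548 ± 33.8 CPM. The lymphoid and multipotent progenitor list summed to 294 to 494 CPM in control and 483 to 627 CPM in depleted mice, overlapping. Flt3, a receptor of multipotent progenitors, stood at 2.02, 6.37, 11.2 and 29.6 CPM in control and 22.5, 30.6, 29.1 and 17.2 CPM in depleted mice, with control mouse 4 within the depleted range, and Cd34 at 254 ± 67.2 and 335 ± 28.1 CPM. Cd79b and Nkg7 had log2 fold changes of 0.23 and -0.70, the latter with control mouse 3 high at 111 CPM.

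Erythroid markers summed to 1977 to 2869 CPM in control and 2076 to 2375 CPM in depleted mice, and mast and basophil markers to 788 to 1116 and 846 to 1124 CPM. Car2, Blvrb and Aqp1 had log2 fold changes of -0.21, -0.15 and -0.03, and Cpa3 and Srgn of -0.82 and -0.06. Of the listed markers shared with endothelium, Pecam1 stood at 57.8 ± 8.76 and 71.7 ± 26.5 CPM and Emcn at 56.8 ± 12.6 and 46.6 ± 5.81 CPM. Malat1, a nuclear RNA, stood at 2394 ± 369 and 1894 ± 404 CPM, overlapping, at a log2 fold change of -0.34. None of these genes was called by edgeR. DESeq2 called Hbb-bt, a globin, and C1qb of the macrophage list, both lower. The part of cells of other lineages in the results above was not tested beyond the macrophage marker wells.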

How the data were processed

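Per the labels' protocols, marrow was crushed and stained, single cells were sorted by flow cytometry into lysis buffer, and Smart-seq2 libraries were made with the Nextera kit. Smart-seq2 carries no molecular identifiers, so counts are reads after amplification and intervals cover counting error only. The authors deposited whole-number counts per gene and well. STAR 2.6.0, HTSeq 0.6.1 and Trim Galore 0.5 are named per the submitters' processing notes. Not given in the sources used here are the genome build and any strand setting.

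The members and gene lists were chosen with earlier results of these data known. The mouse code that opens each well's name was taken as the replicate. Counts of rows sharing a symbol were added, and kept wells were summed per mouse. Genes with a mean of 8 CPM or more were tested with edgeR 4.0.16 (TMM, quasi-likelihood, default options, R 4.3.3), adjusted by Benjamini-Hochberg over all 9884 genes. A prior count of 2 entered only the log CPM from which the GC content and length trends were fitted. CPM per mouse are TMM-scaled, except that genes under the filter, list sums and values with the macrophage marker wells left out are CPM of the whole sum. Cells were sorted singly and no doublet caller was run. Detection shares and genes per cell used 673 cells thinned to 100000 counts, leaving out 6 shallower ones. Lengths and GC content are of the longest transcript in GENCODE, and were found for 9777 genes tested. Of 18 wells left out for over 10000 genes and 71 under a minimum, 0 failed by the mitochondrial share alone.

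Named genes were the called genes, the next by p without overlap up to 12 per direction, the 3 members with the highest mean CPM and any called members of each list, and 16 fixed genes. Others are said to have been named after their values were seen, as were mt-Rnr2, Pola1, Klf6, C1qb, Adgre1 and H2ac6, and the members called by DESeq2 alone. Some genes that this rule names are not reported here. DESeq2 1.42.0 and other filters, scalings and well choices were the alternatives. On simulated data of 9884 genes for this comparison, 10% of 50 genes changed 1.5-fold were recovered, 48% at 2-fold, 86% at 3-fold and 96% at 4-fold, with 8 unchanged genes called.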

Additional observations from a re-analysis of the deposited data

Results flagged for a closer look

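In 15 of 286 groups of 4 mice, 1 mouse stood apart from the other 3 by Dixon's test, which chance gives in about 1 in 20 groups. Among called genes these were Hmox1 at 26.2 CPM in depleted mouse 3, Rpl39 at 463 CPM in control mouse 4, Rps15a at 849 CPM in control mouse 3 and Rpl30 at 869.7 CPM in control mouse 1, each the highest of its group. Among genes near the threshold they were Gm47283 at 54.5 CPM in control mouse 4, Atp11b at 94.96 CPM in depleted mouse 3 and H2ac6 at 51.4 CPM in depleted mouse 3. Control mice 1 and 2 were lowest for Psmb8 at 490.2 CPM and Bcl2 at 56.8 CPM, and for Eif5a at 1026 CPM and Psma7 at 303 CPM. Control mouse 3 was highest for Blvrb at 59.4 CPM and Cd79b at 47.7 CPM. Itga2b was lowest in depleted mouse 3 at 175 CPM, and Vcam1 highest in depleted mouse 2 at 13.9 CPM.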

How the results depend on the processing

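The count of 9 calls, all lower, moved with the processing. DESeq2 called 129 genes (31 higher, 98 lower) and thinned cells gave 27 (2 higher, 25 lower). The default filter of edgeR and no filter on low counts each gave 0, with 1427 and 2496 genes at an unadjusted p under 0.05. Leaving out the macrophage marker wells gave 4 and taking out ribosomal protein and mitochondrial genes gave 2, all lower, and both of these were chosen after seeing the data. Removing GC content and length trends gave 8, of which 1 was higher. Without 1 mouse there were 0 to 13 calls, 0 to 2 higher and 0 to 12 lower. The cause was not tested. The difference in median counts per kept well, depleted minus control, was -3481 with the stricter well filter and ran from -210065 to 113184 without 1 mouse. The difference in cells with Vwf then ran from -10.1 to 4.01 percentage points and in cells with Procr from -1.69 to 5.57. No paired analysis was possible because the control and depleted groups hold different mice. The tests of whether the difference differs between HSC and the CFU or MkP populations, with their alternatives, and the fit of all 24 sums were not run, so nothing here is shown to be particular to HSC.

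Log2 fold changes of some named genes, none of them called, changed sign. With cells thinned to 100000 counts they were Smc4 at 0.0118, Nfkbia at -0.14, mt-Co1 at -0.0104, Mrps17 at -0.0806, Ccng1 at -0.0704, Aqp1 at 0.0428 and Vwf at -0.0786. With the macrophage marker wells left out it was Mrps17 at -0.0429. With ribosomal protein and mitochondrial genes taken out it was Mrps17 at -0.00560. With GC content and length trends removed they were Cdk6 at -0.0438, Eif5a at 0.0233, mt-Nd1 at 0.0883, Mrps17 at -0.0629 and Lyz2 at 0.0790. With barcoded wells only they were Cdk6 at -0.0639, Mrps17 at -0.0313 and Lyz2 at 0.00573. With no upper limit on genes they were Nfkbia at -0.00743 and Lyz2 at 0.00245. With edgeR's default filter they were Eif5a at 0.00943, Aqp1 at 0.00878 and Lyz2 at 0.0216. With no filter on low counts they were Eif5a at 0.0194, H3f3b at 0.00623, Aqp1 at 0.0191 and Lyz2 at 0.0320. With DESeq2 it was Mrps17 at -0.00168. Without 1 mouse the log2 fold change ran over both signs for Trp53 from -0.0303 to 0.12, Cdk6 from -0.21 to 0.23, Smc4 from -0.20 to 0.0552, H2-D1 from -0.00157 to 0.17, Nfkbia from -0.0820 to 0.13, Fos from -0.43 to 0.0809, Eif5a from -0.14 to 0.0296, mt-Co1 from -0.0209 to 0.0770, mt-Cytb from -0.00750 to 0.13, Atp5a1 from -0.13 to 0.00591, Mrps17 from -0.0648 to 0.0581 and Mrpl4 from -0.00333 to 0.14. It did so too for Stard4 from -0.19 to 0.11, Ccng1 from -0.0185 to 0.23, H3f3b from -0.11 to 0.0389, Aqp1 from -0.14 to 0.12, Lyz2 from -0.0542 to 0.0280, Nkg7 from -1.002 to 0.0516, Srgn from -0.13 to 0.0205, Procr from -0.36 to 0.0429, Vwf from -0.39 to 0.57, Itga2b from -0.0148 to 0.36, Slamf1 from -0.42 to 0.0492 and Mki67 from -0.89 to 0.18.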
